A study of Solanum lycopersicum with 4 samples.

Results

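COMPOUND INFLORESCENCE (S, identifier Solyc02g077390.1) is the tomato homologue of WOX9, a transcription factor of the WUSCHEL-related homeobox family. It was chosen by its identifier and is 1 of 34722 genes in the table. RNA sequencing gave its level in shoot apical meristems, the growing points that form leaves and flowers, of wild-type tomato (Solanum lycopersicum). The 2 vegetative libraries, called C and D after their titles, came from meristems with 6 leaves produced, and the 2 transitional libraries, A and B, from meristems at floral transition. All 4 came from wild-type greenhouse seedlings grown for 2 to 12 days and dissected after acetone fixation, with no other treatment named in the labels. The labels do not say whether the replicates came from separate sets of plants, so that the p-values reflect the spread among these samples alone, part or all of which may be technical. The mutant named in the study's title was not analysed here.

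In tomato the shoot apical meristem makes leaves, passes through a transitional state and ends as the first flower, and growth of the inflorescence continues from a new meristem at its flank. S is known for its mutant, in which meristems are slow to become floral and the inflorescence branches many times over. Its role is described together with that of ANANTHA, an F-box protein that acts as the flower meristem forms. WOX genes in general encode homeodomain proteins of stem cell and organ patterning, WUSCHEL being the best known. The question addressed by the comparison was how S differs between the transitional and the vegetative meristem. By the naming scheme of tomato identifiers the gene lies on chromosome 2; no position is given because the sources used here name no genome build.

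The libraries held between 16141074 and 23043526 reads in genes, and a gene with no read is limited to at most 0.130 to 0.186 CPM (reads per 1000000 gene reads of a library; the limit is 3 reads). Of 7 genes listed as shoot apical meristem markers, all were read in every library. Their summed level was 18871 (C) and 17802 (D) normalised counts (reads divided by the authors' size factor of the library) in the vegetative pair and 15145 (A) and 14084 (B) in the transitional pair, and 2 of the 7 fell, against 1.19% of all tested genes. Their median log2 change was -0.24 with all 4 libraries. It was -0.21 without vegetative C, -0.27 without D, -0.33 without transitional A and -0.16 without B.

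S was transcribed at both stages and was several times higher at the transition. In vegetative C it had 133 reads, or 183 normalised counts, and in vegetative D 73 reads, or 71.4 normalised counts. In transitional A it had 1164 reads, or 1180 normalised counts, and in transitional B 769 reads, or 778 normalised counts. The groups did not overlap, and within each group the replicates were unequal, C above D and A above B. As a share of all gene reads, S stood at 8.24 CPM in vegetative C (exact 95% binomial interval 6.90 to 9.77) and at 3.17 CPM in vegetative D (2.48 to 3.98). It stood at 53.0 CPM in transitional A (49.96 to 56.1) and at 34.8 CPM in transitional B (32.4 to 37.4). No interval reached that of another library. The intervals cover counting error only.

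**Figure D1:**
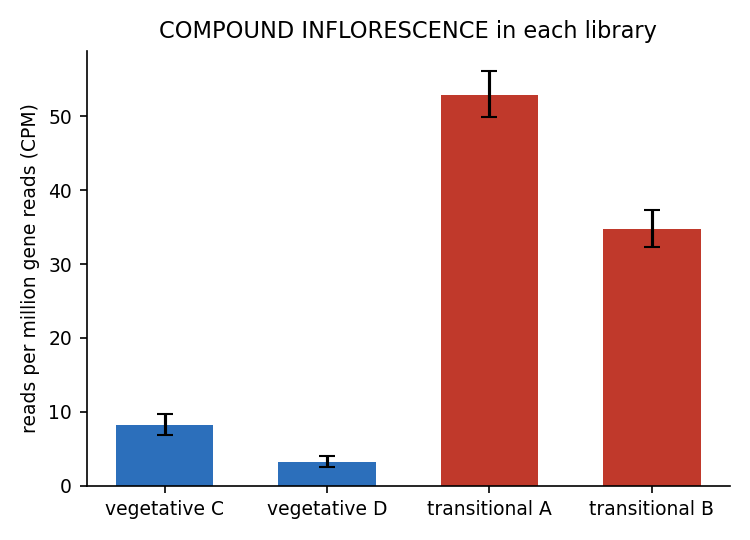
CPM of COMPOUND INFLORESCENCE (vertical axis) in each library; bars are single libraries, blue for vegetative and red for transitional, and error bars are exact 95% binomial intervals that cover counting error only. Both transitional bars, at 53.0 and 34.8 CPM, stand above both vegetative bars, at 8.24 and 3.17 CPM.

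S rose at floral transition. The mean was 127 ± 79.3 normalised counts in the vegetative group and 979 ± 284 in the transitional group (SD, n = 2 each). On the log2(normalised count + 1) scale the change was 3.05 with a standard error of 0.40 and a 95% interval of 2.10 to 4.003, equal to 8.30-fold with limits of 4.29-fold and 16.0-fold (limma, Benjamini-Hochberg adjusted p = 0.00963 over 19607 genes). The standard error, the interval and the p-value rest on a variance drawn toward that of other genes. From the replicate gaps of S alone the interval would be wider. The lower transitional library was 4.24-fold above the higher vegetative one, and the higher transitional library 16.5-fold above the lower vegetative one. Upward calls made up 2.70% of the tested genes, 529 in number. Both transitional values stood above both vegetative values, as they did in 25.0% of the tested genes. An exact two-sided permutation test of S alone cannot go below p = 0.333 with 2 libraries against 2, which was the value found. In whole meristems a larger share of cells with the transcript and more transcript per cell cannot be told apart.

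The call rested on having both vegetative libraries. Without vegetative C the log2 change was 3.73 with an adjusted p of 0.117 (limma), and without vegetative D it was 2.38 with an adjusted p of 0.173. In either case limma called 0 of the 19607 genes, with 1577 genes at an unadjusted p under 0.05 without C and 1867 without D. The change was called without transitional A (2.75, limma adjusted p = 0.0381) and without transitional B (3.35, limma adjusted p = 0.0185).

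The vegetative level was not that of a silent gene. The 133 and 73 reads of vegetative C and D were 44.3 and 24.3 times the limit of 3 reads, so that the change was a rise from a low level and not an onset from no reads. Ranked by normalised count, S was number 12782 of the 21588 genes with a read in vegetative C and number 15200 of 22127 in vegetative D. It was number 4781 of 22476 in transitional A and number 6727 of 22360 in transitional B. These ranks are of read counts and not of counts per length, so that a longer gene ranks higher at the same number of transcripts. Put as a share, S was above 40.7% and 31.2% of the genes with a read in vegetative C and D and above 78.7% and 69.9% in transitional A and B.

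By the size of its log2 change S was number 126 of the 19607 tested genes, within the top 0.643%, and number 88 of the 529 that rose. The median log2 change was 1.26 among the genes that rose and 0.01 over all tested genes. Most of the larger changes began near zero: of the 125 genes with a larger log2 change, 99 had a vegetative mean under 10 normalised counts. Among the 13863 genes with a vegetative mean at least that of S, 3 had a larger log2 change. By the gain in mean normalised counts, 851 for S, it was number 202. By p-value it was number 179 of the 529, a lower place than by size.

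**Figure D2:**
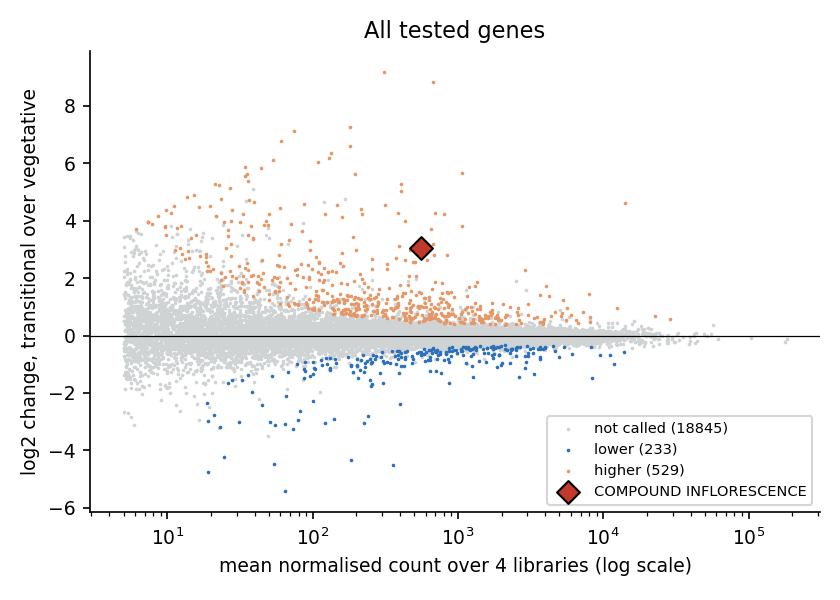
Log2 change from vegetative to transitional meristems (vertical axis) against the mean normalised count over the 4 libraries (horizontal axis, log scale) for the 19607 tested genes; orange and blue points passed the limma test upward (529) and downward (233), grey points did not. COMPOUND INFLORESCENCE, the red diamond, lies at a log2 change of 3.05, at a higher mean count than most genes with a larger change.

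The spread between replicates was wide against that of genes with a similar mean over the 4 libraries. S was 2.57-fold higher in vegetative C than in D, a log2 difference of 1.35, and 1.52-fold higher in transitional A than in B, a log2 difference of 0.60. The 6481 genes with a mean over the 4 libraries within 2-fold of that of S, 277 to 1106 normalised counts, served for comparison. In vegetative C and D S itself stood below this range, at 183 and 71.4, so that these genes do not match its vegetative level. Their median difference, without regard to sign, was 0.09 on the log2 scale for the vegetative and 0.13 for the transitional pair. A gap at least as wide as that of S was found in 3 of them for the vegetative and in 135, or 2.08%, for the transitional pair. The standard error of the change was 0.40 for S and had a median of 0.11 among these genes, of which 22 had one at least as large. Of the 6481, 16 had a log2 change at least as large as that of S, and 165, or 2.55%, were called higher, near the 2.70% of all tested genes.

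**Figure D3:**
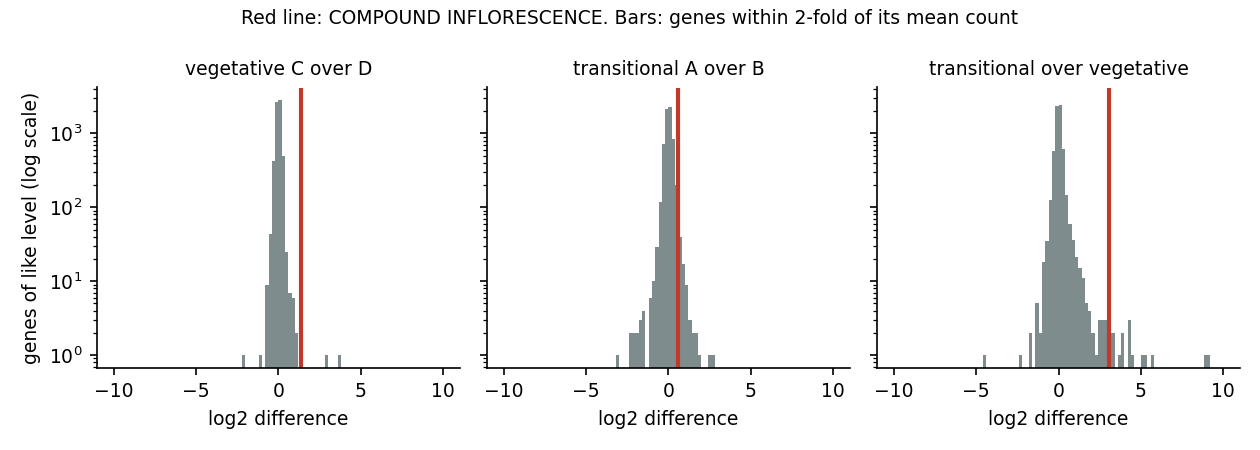
Log2 differences (horizontal axes) between the vegetative replicates, between the transitional replicates and between the stages for the 6481 genes within 2-fold of the mean count of COMPOUND INFLORESCENCE; bars count genes (vertical axis, log scale) and the red line marks COMPOUND INFLORESCENCE. Its line lies at 1.35, outside nearly all genes between vegetative C and D, at 0.60 between transitional A and B, and at 3.05 between the stages.

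The genes with the most similar counts were found by the Euclidean distance over the 4 log2 values, again with no account of length. The nearest, Solyc02g089210.2 at a distance of 0.46, stood at 137 (C) and 66.5 (D) normalised counts in the vegetative and at 1139 (A) and 702 (B) in the transitional libraries. Its log2 change was 3.22 with a standard error of 0.35 (limma adjusted p = 0.00529). The next, Solyc06g069430.2 at a distance of 0.64, had 160 (C) and 82.2 (D) normalised counts in the vegetative and 882 (A) and 594 (B) in the transitional libraries. Its log2 change was 2.65 with a standard error of 0.31 (limma adjusted p = 0.00691). Both shared with S the higher value in C than in D and in A than in B. The files do not pair these identifiers with names.

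Among the nearest 20 genes, at distances of 0.46 to 1.78, all 20 passed the same test as S, which follows in part from how they were found. Their log2 changes ran from 1.65 to 4.26 with a median of 2.65. Of the 20, 18 were like S higher in A than in B and 11 like S higher in C than in D. The shares were 52.6% and 49.1% of all tested genes, and 70.5% and 45.4% of the 529 genes that rose. This likeness too is partly built in, since the same 4 values set the distance.

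**Figure D4:**
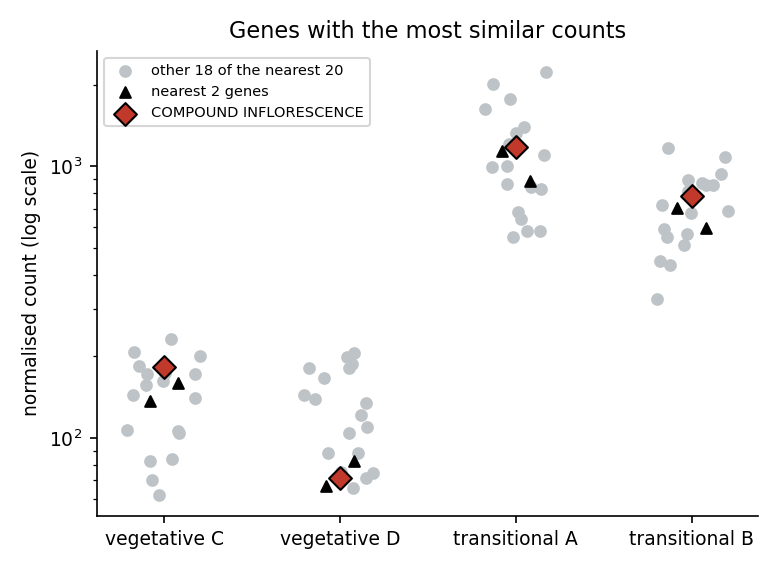
Normalised counts (vertical axis, log scale) in the 4 libraries for COMPOUND INFLORESCENCE (red diamonds), the 2 genes nearest to it (black triangles) and the other 18 of the nearest 20 (grey circles, spread sideways for legibility). In vegetative D the red diamond, at 71.4, and the black triangles, at 66.5 and 82.2, are at the low end of the set, and in vegetative C, at 183, 137 and 160, they are not.

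Other genes of the pathway were read as lists whose identifiers were recalled from the published nomenclature of tomato. Membership could not be checked, since neither the deposited nor the RefSeq table links the identifiers to names, and members are given unnamed. All gene lists, that of the shoot apical meristem included, were chosen with earlier results of these data known. Their counts beside the shares of all tested genes are therefore descriptions and no independent support. Of 15 genes of inflorescence architecture, which include regulators of floral meristem identity, florigen signalling, branching and the flower stalk joint, 6 rose and none fell, against 2.70% of all tested genes upward. The log2 changes of the 6 ran from 1.37 to 6.19, and the list median was 1.37, against 0.01 over all tested genes. In 5 of the 15 the log2 change was larger than that of S. Across these 5 the vegetative libraries held 0 to 138 normalised counts and the transitional ones 30.4 to 2588. The member at 138 in vegetative C stood at 9.78 in vegetative D, a wider gap in the same direction as that of S. Over the 15 members, 8 stood higher in C than in D, with a median log2 difference of 0.02. The list median was 1.66 without vegetative C, 1.08 without D, 1.21 without transitional A and 1.53 without B.

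Of 9 other identifiers listed as WOX genes, 7 could be tested and 0 were called by limma, edgeR, DESeq2 or limma-voom, with 2 at an unadjusted p under 0.05 by limma. Over all tested genes limma called 2.70% higher and 1.19% lower, so that 0 of 7 is near the background and is no result about the family. Their log2 changes ran from -0.72 to 0.69 with a median of 0.21. Of the 2 that were not tested, 1 had no read in any library, and the other had no read in vegetative C or D and 5.07 (A) and 3.04 (B) normalised counts at the transition. The summed level of the 9 was 887 (C), 859 (D), 990 (A) and 947 (B) normalised counts. S alone stood at 1180 (A) and 778 (B) at the transition. Levels within this sum are not per length.

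**Figure D5:**
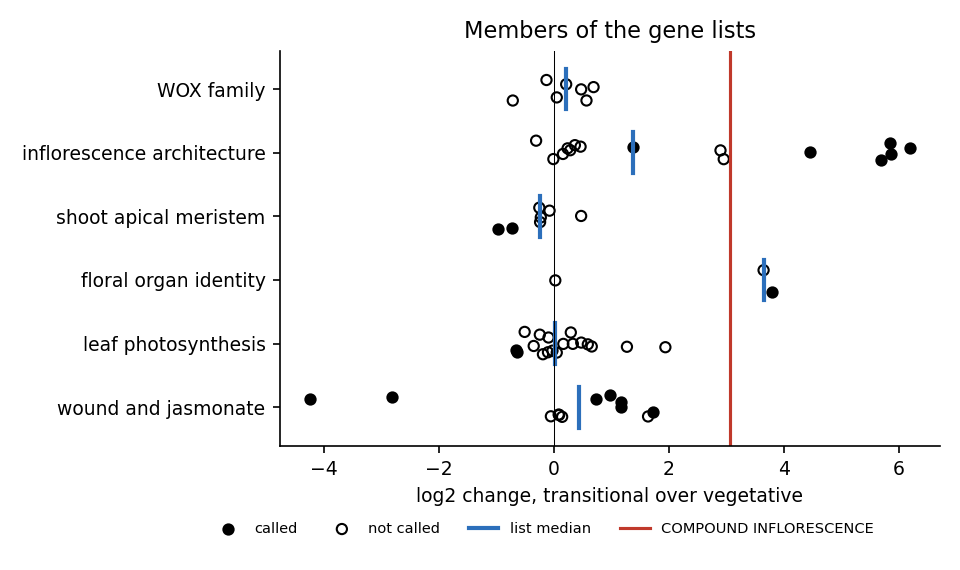
Log2 change from vegetative to transitional meristems (horizontal axis) for the tested members of each gene list (rows, points spread vertically for legibility); filled points passed the limma test, open points did not, blue bars are list medians and the red line is COMPOUND INFLORESCENCE at 3.05. No tested WOX gene lies beyond 0.69, while 5 genes of inflorescence architecture lie to the right of the red line.

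Among the 10 identifiers before and the 10 after it in number order, 11 could be tested and 0 were called by limma, edgeR, DESeq2 or limma-voom, with 1 at an unadjusted p under 0.05 by limma. This too is near the background of 2.70% higher and 1.19% lower. Their log2 changes ran from -0.67 to 0.99 with a median of 0.17. Of the 20, 4 had no read in any library, among them the identifiers directly before and after S. That number order follows the chromosome is the convention of these identifiers and was not checked against a genome.

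Markers of other tissues and of handling were read in the same libraries. Of 8 genes of floral organ identity, which act in petals, stamens and carpels, 3 had no read in any library and 3 could be tested. Of these 1 rose, against 2.70% of all tested genes, by 3.79 on the log2 scale from 0 (C) and 0.978 (D) to 22.3 (A) and 15.2 (B) normalised counts. The summed level of the 8 was 639 (C), 635 (D), 699 (A) and 658 (B) normalised counts, nearly all from 1 member at 624 to 668. None of them was called higher by DESeq2, with no filter or with genes limited to those reaching 1 CPM in 2 libraries. By limma-voom and with library size scaling 2 were. The median of the tested members was 3.65 with all libraries, 3.29 without vegetative C and 3.65 without D.

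Of 18 leaf photosynthesis genes, markers of expanding leaf tissue, 2 fell and none rose, against 1.19% lower and 2.70% higher among all tested genes, with a median log2 change of 0.01 both in the list and over all tested genes. All 18 were higher in transitional A than in B, as S was, by a median log2 difference of 0.67, against 52.6% of all tested genes and a median of 0.0097. Several of the 18 have neighbouring identifiers and need not be separate observations. The summed level of the 18 was 12585 (C), 14821 (D), 14616 (A) and 9321 (B) normalised counts, so that the groups overlapped. The vegetative order, D above C, was the opposite of that of S. The median log2 change of the list was -0.41 without transitional A and 0.38 without B. Of the 18, 1 was at 0 in vegetative D.

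Of 14 wound and jasmonate genes, markers of tissue damage, 12 could be tested. Of these 5 rose, with log2 changes of 0.72 to 1.72, and 2 fell, with changes of -2.82 and -4.24, against 2.70% higher and 1.19% lower among all tested genes. The list median was 0.43, against 0.01 over all tested genes. The summed level was 21350 (C), 20928 (D), 28202 (A) and 27750 (B) normalised counts, the 2 untested members having no read. Much of this sum came from 1 member that was not called, at 8437 to 12623 normalised counts. Another member, called higher, stood at 1729 (C), 1937 (D), 7762 (A) and 4686 (B), so that the sum is no list-wide measure. The list median was 0.48 without vegetative C and 0.49 without D. The part of these tissues and of handling in the rise of S was not tested.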

How the data were processed

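The deposited values are a normalised signal for each gene in each library, which by their steps are read counts that the authors divided by a size factor. Named in the submitters' processing notes, with no role given, are DESeq2 1.6.3, TopHat2 2.0.10 and HTSeq 0.6.1p1. Build, annotation, strand and the treatment of shared reads are not stated in the labels, so a gene that shares reads with a near-identical copy would be uncertain. All values (100%) were whole multiples of 1 step per library (relative tolerance 1e-06), from which reads were recovered. The vegetative libraries are C and D in the titles, followed here, and A and B in the column names.

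limma 3.58.1 (trend, R 4.3.3) was fitted to log2(value + 1), a scale that understates changes of low genes, for the 19607 genes whose mean reached 5 normalised counts, with group as sole term; calls had a Benjamini-Hochberg adjusted p under 0.05. Alternatives were edgeR 4.0.16, DESeq2 1.42.0 and limma-voom on recovered reads, other scalings, pseudocounts of 0.5 and 5, other filters and leaving out each library. By edgeR 485 genes were higher and 207 lower, sharing 690 of the 762 limma calls. Scripts were tested on simulated data. Exact tests ran in Python 3.11.15 with SciPy 1.17.1. Of the 34722 identifiers, 0 matched RefSeq (assembly SLM_r2.1). The gene, the tests and the lists (71 entries, matched on 14 characters) were chosen with earlier results of these data known. Named genes were S and the 2 nearest over the log2 values.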

Additional observations from a re-analysis of the deposited data

How the results depend on the processing

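With all 4 libraries, S was called higher in 9 of 10 alternatives, with log2 changes of 2.94 to 3.16 and adjusted p-values of 0.00104 to 0.0173. Without a filter its log2 change of 3.05 was no longer called (limma adjusted p = 0.114), as limma then called 6 genes higher and 1 lower. Its place by log2 change, 126, was 61 with a pseudocount of 5 and 76 with genes limited to those reaching 1 CPM in 2 libraries. Leaving out 1 library at a time gave log2 changes of 2.38 to 3.73, places of 79 to 258, 0 to 776 genes called higher and 0 to 478 lower, the lone library of a group being assumed to vary like the other group. The scalings moved the median of all genes by less than 0.1 on the log2 scale. No paired analysis was possible because no 1 label gives the groups shared replicate names: the titles have C and D against A and B, and the descriptions and column names WT_A and WT_B against WT_TM1 and WT_TM2. With 2 libraries per group, the gap between replicates and not depth limits the precision of the change. The limma fit also drew the variance of S toward that of other genes, with 5.18 prior against 2 residual degrees of freedom. The standard error of 0.40 is therefore smaller than the replicate gaps of S alone would give.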

Other observations

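Among the 14600 tested genes whose mean reached 100 normalised counts, a set chosen after the values were seen, 8 besides S stood at least as far above D in vegetative C as S did. Of these 8, 6 were called higher at the transition and none lower. In the opposite direction, 7 genes stood as far above C in D, and 0 of them were called higher by limma. The 2.70% called higher is a share of all 19607 tested genes, with no such limit on the mean. The mean was taken over all 4 libraries, so that the transitional values enter both the selection and the call. The 6 calls are thus partly built in, and no conclusion is drawn from a comparison with the 2.70%. Over all 529 genes that rose, 240, or 45.4%, were higher in C than in D, against 49.1% of all tested genes, and 373, or 70.5%, were higher in A than in B, against 52.6%. The cause was not tested.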
